A study of Mus musculus with 6 samples.

Results

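The genes described here mark T cells and carry the signal of their antigen receptor. They are 30 genes chosen by name for their known function, out of 19752 genes that could be named on the arrays. The choice was made with earlier results of these data known. By role they are 4 chains of the CD3 and zeta complex (Cd3d, Cd3e, Cd3g, Cd247), 3 coreceptor chains (Cd4, Cd8a, Cd8b1), 8 surface costimulatory, adhesion and cytokine receptors (Cd2, Cd5, Cd6, Cd27, Cd28, Thy1, Cd96, Il7r), 11 kinases and adaptors (Lck, Zap70, Lat, Lcp2, Trat1, Themis, Ubash3a, Sh2d1a, Skap1, Txk, Prkcq) and 4 transcription factors (Tcf7, Lef1, Bcl11b, Gata3). All 30 had a named probe, and each was well above background on all 6 arrays, so none is left out of the counts. Each gene is given by its brightest probe.

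Total RNA of whole lung from C57BL/6 mice was hybridised to 6 one-colour Agilent arrays, 1 for each combination of genotype and challenge. The genotypes were wild type (WT), FcRg KO, labelled FcRg-/- and by that label without the signalling chain shared by several Fc receptors, and FceRIa KO, by label without the IgE-binding chain of the high-affinity IgE receptor. Each received, intranasally, either PBS or mouse histamine-releasing factor (HRF), a secreted protein that can bind IgE. The age and sex of the mice, the dose, the time after challenge and whether an array holds 1 mouse or a pool are not given in the sources used here, and no group has a replicate. A difference between 2 arrays therefore has no replicate check, and its spread between mice is unknown.

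T cells recognise antigen through a receptor whose own chains cannot signal. The CD3 and zeta chains do this for it: the kinase Lck, held by the coreceptors CD4 or CD8, phosphorylates them, Zap70 binds the phosphorylated chains, and Zap70 then phosphorylates the scaffold Lat and the adaptor Lcp2 (SLP-76). The FcRg chain belongs to the same family as the zeta chain and uses the same kind of phosphorylated motif. In the lung T cells patrol the tissue as naive, memory and resident cells, and in whole-lung RNA they are a minority beside epithelium, endothelium and stroma.

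Levels are log2 processed signals scaled to the array, where 0 is the 75th percentile of all its spots other than controls. They are listed throughout in the order WT PBS, WT HRF, FcRg KO PBS, FcRg KO HRF, FceRIa KO PBS and FceRIa KO HRF, and ratios are log2 ratios between 2 arrays. The 75th percentile itself lay between 1197 and 1622 intensity units, 67.5% to 79.6% of the 59305 spots other than controls were well above background, and no spot was saturated. Markers of lung epithelium and endothelium were well above background on all 6 arrays in 12 of 12 cases, and their summed level varied from 10.20 to 10.50. In bulk RNA of this kind, fewer cells of a type and less RNA per cell cannot be told apart.

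The targeted genes did not follow the labels. Fcer1g, which encodes the FcRg chain, stood at 3.93, 4.61, 4.14, 4.32, 4.07 and 4.45, and its limma difference between the FcRg KO label and WT was -0.04 ± 0.15 (SE, adjusted p = 0.917). For Fcer1a, the levels were -4.48, -4.19, -4.70, -4.38, -0.90 and -1.16, so that both arrays labelled FceRIa KO were the highest. It is not known here whether either probe detects a deleted exon, so these values do not settle the genotypes, and the groups are called by their labels.

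The arrays labelled FcRg KO also stood apart in B cell genes. Of 13 B cell genes compared, 12 were at least 1.5-fold and 11 at least 2-fold lower on the FcRg KO PBS array than on WT PBS, against 8.52% and 3.04% of all genes. In limma over both challenges 7, among them Ms4a1, Cd79b, Pax5, Fcer2a, Fcrla and Fcmr, fell, with a lowest adjusted p of 0.00418. Without the pair labelled FceRIa KO in the fit, 0 genes passed in this comparison. The summed B cell level was 3.80 and 4.04 on these arrays and 5.69 to 6.01 on the other 4. Cd79b, a signalling chain of the B cell receptor, stood at 3.74, 3.99, 0.76, 0.74, 3.91 and 4.27, while Ms4a1, which encodes CD20, was not well above background on either array labelled FcRg KO. The part of this in the T cell values given next was not tested.

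Promoter sequences were available for 22 of the 30 genes, as 31 start sites. They run from 250 bases before to 50 after each start in RefSeq's mouse table for GRCm38.p6. The 6 sequences printed belong to genes whose values span the patterns described further on: Cd3d, Cd3g, Cd8a and Trat1 were high on the FcRg KO PBS array, Lcp2 had the highest HRF to PBS ratio in WT, and Ubash3a was lower on the FceRIa KO PBS array. Each is written 5′ to 3′ on the strand of its gene, and capitals mark matches on either strand to 5 short motifs: AGGAAG for ETS factors, CTTTGA for the TCF/LEF factors, TGTGGT for RUNX factors, AGATAA for GATA factors and CAGCTG for E-box proteins. No match overlaps another in the sequences printed.
Cd3d (chr9:44981536-44981835, plus strand): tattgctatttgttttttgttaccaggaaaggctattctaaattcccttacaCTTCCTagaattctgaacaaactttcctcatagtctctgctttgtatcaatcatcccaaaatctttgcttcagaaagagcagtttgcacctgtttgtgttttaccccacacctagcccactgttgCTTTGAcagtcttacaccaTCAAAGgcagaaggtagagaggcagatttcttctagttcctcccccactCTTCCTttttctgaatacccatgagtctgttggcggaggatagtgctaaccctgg
Cd3g (chr9:44980382-44980681, minus strand): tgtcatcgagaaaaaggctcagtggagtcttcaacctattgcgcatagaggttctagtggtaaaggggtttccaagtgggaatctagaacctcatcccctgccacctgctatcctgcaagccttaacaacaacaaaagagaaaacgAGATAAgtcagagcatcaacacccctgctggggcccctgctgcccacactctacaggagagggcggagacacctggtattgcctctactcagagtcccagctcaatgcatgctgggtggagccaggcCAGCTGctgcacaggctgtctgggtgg
Cd8a (chr6:71373177-71373476, plus strand): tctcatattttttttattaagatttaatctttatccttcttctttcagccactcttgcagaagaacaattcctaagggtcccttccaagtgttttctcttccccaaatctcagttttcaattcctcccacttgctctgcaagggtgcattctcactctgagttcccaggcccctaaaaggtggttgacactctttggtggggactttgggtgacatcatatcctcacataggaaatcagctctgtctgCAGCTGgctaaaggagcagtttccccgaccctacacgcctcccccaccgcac
Trat1 (chr16:48772013-48772312, minus strand): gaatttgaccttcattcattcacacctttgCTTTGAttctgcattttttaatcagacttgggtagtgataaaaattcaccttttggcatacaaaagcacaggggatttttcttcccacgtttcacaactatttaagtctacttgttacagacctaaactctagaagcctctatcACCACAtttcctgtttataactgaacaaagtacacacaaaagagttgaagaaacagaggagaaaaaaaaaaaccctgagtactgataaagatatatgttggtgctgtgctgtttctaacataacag
Lcp2 (chr11:34046678-34046977, plus strand): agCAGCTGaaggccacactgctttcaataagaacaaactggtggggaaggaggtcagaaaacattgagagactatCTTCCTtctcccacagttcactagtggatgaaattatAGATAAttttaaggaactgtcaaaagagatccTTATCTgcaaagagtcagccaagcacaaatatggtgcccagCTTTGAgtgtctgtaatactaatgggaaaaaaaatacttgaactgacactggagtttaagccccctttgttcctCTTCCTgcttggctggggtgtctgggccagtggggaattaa
Ubash3a (chr17:31207816-31208115, plus strand): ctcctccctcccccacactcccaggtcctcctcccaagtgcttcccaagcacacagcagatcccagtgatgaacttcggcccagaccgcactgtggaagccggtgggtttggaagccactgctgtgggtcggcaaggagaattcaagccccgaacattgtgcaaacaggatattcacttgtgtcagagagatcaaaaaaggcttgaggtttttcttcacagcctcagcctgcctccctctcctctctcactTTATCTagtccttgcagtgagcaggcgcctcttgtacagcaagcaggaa

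Among the 31 promoters, the ETS motif was found in 15, against 35.4% of 32851 mouse promoters of the same length. The TCF/LEF motif was found in 9 against 16.0%, the RUNX motif in 7 against 16.8%, the GATA motif in 5 against 11.2% and the E-box in 6 against 16.3%. The promoter of Cd3d holds matches to the ETS and TCF/LEF motifs, whereas that of its neighbour Cd3g, on the other strand, holds the GATA motif and the E-box. Cd8a holds the E-box alone, Trat1 the TCF/LEF and RUNX motifs, Ubash3a the GATA motif alone, and Lcp2 each motif except RUNX. These matches describe letters in the window and are not binding sites.

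Most of the 30 T cell genes were highest on 1 of 2 arrays. The FcRg KO PBS array was the highest of the 6 for 14 of them and WT HRF for 11, against 19.5% of all genes well above background for each of these arrays. No gene was highest on WT PBS or on FceRIa KO PBS. The FceRIa KO PBS array was the lowest for 17 (13.4% of all genes) and WT PBS for 7 (18.2%). The summed level of the 30 genes was 5.35, 5.77, 5.86, 5.76, 5.26 and 5.48.

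**Figure D1:**
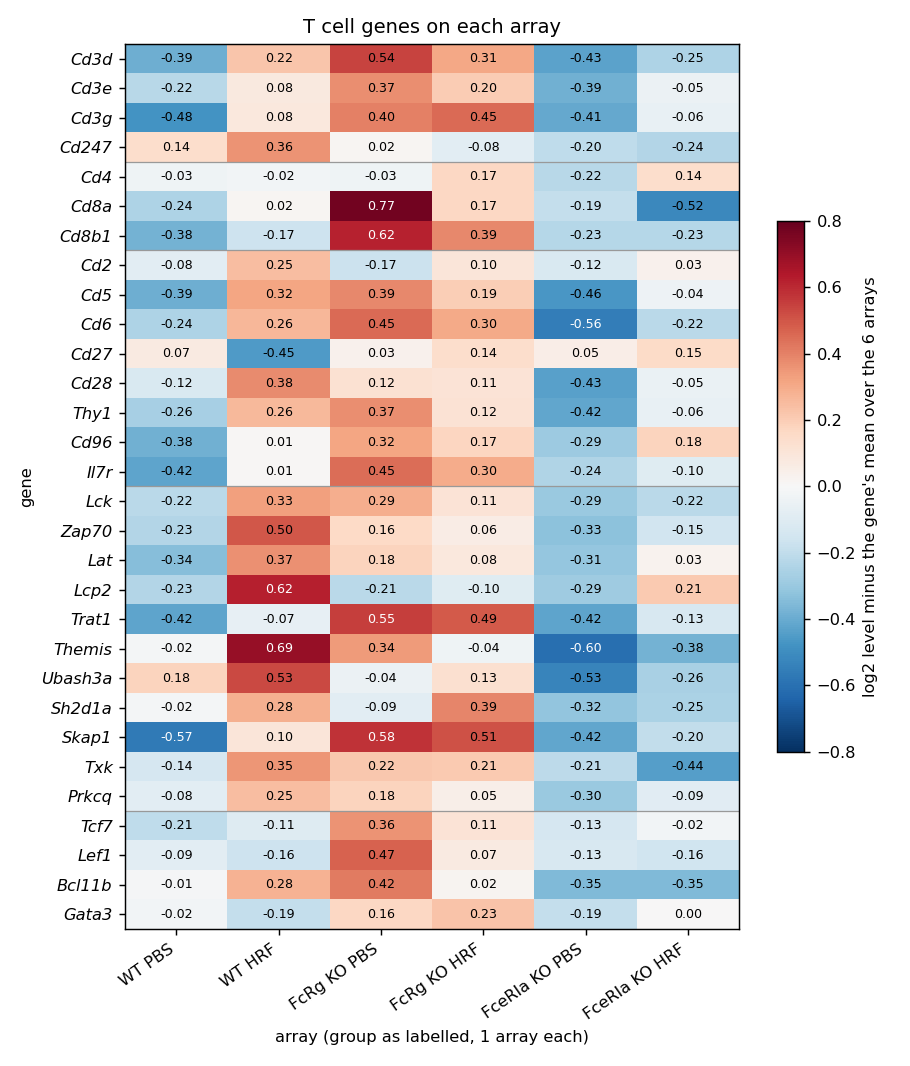
Log2 level of each of the 30 T cell genes (rows, grouped by role) on each of the 6 arrays (columns), coloured by its difference from the gene's mean over the arrays. The FcRg KO PBS column is the highest for 14 genes and the WT HRF column for 11, while FceRIa KO PBS is the lowest for 17.

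The first comparison asks how the lungs of the labelled genotypes differed without HRF. T cell genes were higher on the FcRg KO PBS array than on WT PBS, with a median log2 ratio of 0.51 over the 30 genes against -0.01 over all genes compared. At least 1.5-fold higher were 12 of 30, against 2.65% of all genes, and 0 of 30 were 1.5-fold lower, against 8.52%. Cd8a and Skap1 were at least 2-fold higher, against 0.691% of all genes. A second, dimmer Cd8a probe, also well above background on all 6 arrays, gave a ratio of 0.55, under 1.5-fold. Scaling each array on its median in place of its 75th percentile moved the median of all genes in this comparison by 0.27 and the count to 20 of 30. The share of all genes past 1.5-fold was not counted under median scaling, so 2.65% is not the counterpart of that count. The distance of the 30 genes from the median of all genes was 0.52. This change of scaling shifts all genes alike, so it cannot alter that distance. Neutrophil genes were also higher in this comparison, with a median of 0.82 and 5 of 7 at least 1.5-fold higher, and on FceRIa KO PBS against WT PBS, with a median of 1.06 and 6 of 7. The part of neutrophils in the T cell values was not tested.

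The CD3 chains that surround the receptor were among the higher ones. Cd3d stood at 1.22, 1.83, 2.15, 1.91, 1.18 and 1.36, a ratio of 0.93 between the PBS arrays labelled FcRg KO and WT. Its neighbour Cd3g, at -0.13, 0.43, 0.75, 0.80, -0.06 and 0.29, had a ratio of 0.88. Both were low on WT PBS and FceRIa KO PBS and high on the FcRg KO PBS array. Cd3e, which completes the gene cluster, stood at 1.68, 1.98, 2.27, 2.10, 1.51 and 1.85 with a ratio of 0.59. Cd247, the zeta chain and the relative of FcRg, did not go with them. Its levels were -3.02, -2.80, -3.14, -3.24, -3.36 and -3.40, and its PBS ratio was -0.12. With this scaling it was lower on all 4 arrays labelled as knockouts than on either WT array. That order depends on the scaling, since scaling on the median adds 0.27 to this PBS ratio and reverses its sign. Against WT of the same challenge, the ratios were -0.44 (FcRg KO HRF), -0.34 (FceRIa KO PBS) and -0.60 (FceRIa KO HRF). These stay negative, with shifts of 0.01, 0.23 and 0.06. Cd247 lies on chromosome 1 within 10 Mb of Fcer1g and Fcer1a, with 49 and 104 protein-coding genes between. The part of this position in its levels was not tested.

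The coreceptors of cytotoxic and helper T cells gave different values. Cd8a, the CD8 alpha chain of cytotoxic T cells, stood at -2.19, -1.93, -1.17, -1.78, -2.14 and -2.46, and its PBS ratio for the FcRg KO label was 1.01. Cd8b1, the beta chain that marks conventional CD8 T cells, stood at -1.80, -1.59, -0.80, -1.04, -1.65 and -1.65 with a ratio of 0.995. Both were highest on FcRg KO PBS. Cd4, the coreceptor of helper and regulatory T cells, stood at 1.46, 1.47, 1.46, 1.66, 1.27 and 1.63 for its brightest probe, with the same level on both of these PBS arrays. Its dimmer second probe, also well above background on all arrays, gave a ratio of -0.61 there. That probe gave -0.71 on FceRIa KO PBS against WT PBS, so its lower value was shared by both labels. The difference between these coreceptors was not tested.

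Of the surface receptors, 5 of 8 were at least 1.5-fold higher on FcRg KO PBS than on WT PBS. Il7r, the receptor through which naive and memory T cells receive the survival cytokine IL-7, stood at -0.53, -0.09, 0.34, 0.19, -0.34 and -0.20 and had the highest ratio of the role, 0.87. The inhibitory receptor Cd5 had a ratio of 0.78, and Cd6, a related receptor encoded next to it with no protein-coding gene between them, one of 0.70. Cd96, an adhesion receptor of T and NK cells, also had a ratio of 0.70, and Thy1, a surface glycoprotein of mouse T cells, one of 0.63. The costimulatory receptor Cd28 had a ratio of 0.24, while the adhesion receptor Cd2 (-0.09) and the TNF receptor family member Cd27 (-0.04) lay near 0.

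The kinases and adaptors ranged from -0.22 to 1.14. Skap1, an adaptor that links the receptor to integrin adhesion, stood at 0.78, 1.44, 1.92, 1.85, 0.93 and 1.14, high on both arrays labelled FcRg KO. Trat1, a transmembrane adaptor of the receptor complex, stood at -3.53, -3.18, -2.56, -2.62, -3.53 and -3.24 with a PBS ratio of 0.97, and it too was higher on both arrays labelled FcRg KO than on the other 4. Lat (0.52), Lck (0.51), Zap70 (0.39), the Tec family kinase Txk (0.36), Themis, which is needed for thymocyte selection (0.36), and Prkcq, the protein kinase C theta of the immune synapse (0.26), were higher by less than 1.5-fold. Lcp2 (0.02), the SLAM adaptor Sh2d1a (-0.07) and Ubash3a, a phosphatase-like inhibitor of receptor signalling (-0.22), were not higher. For the transcription factors the ratios were 0.56 for Tcf7 and 0.56 for Lef1, the TCF/LEF factors of naive and memory T cells, 0.43 for Bcl11b, which maintains T cell identity, and 0.18 for Gata3, the factor of type 2 helper T cells.

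**Figure D2:**
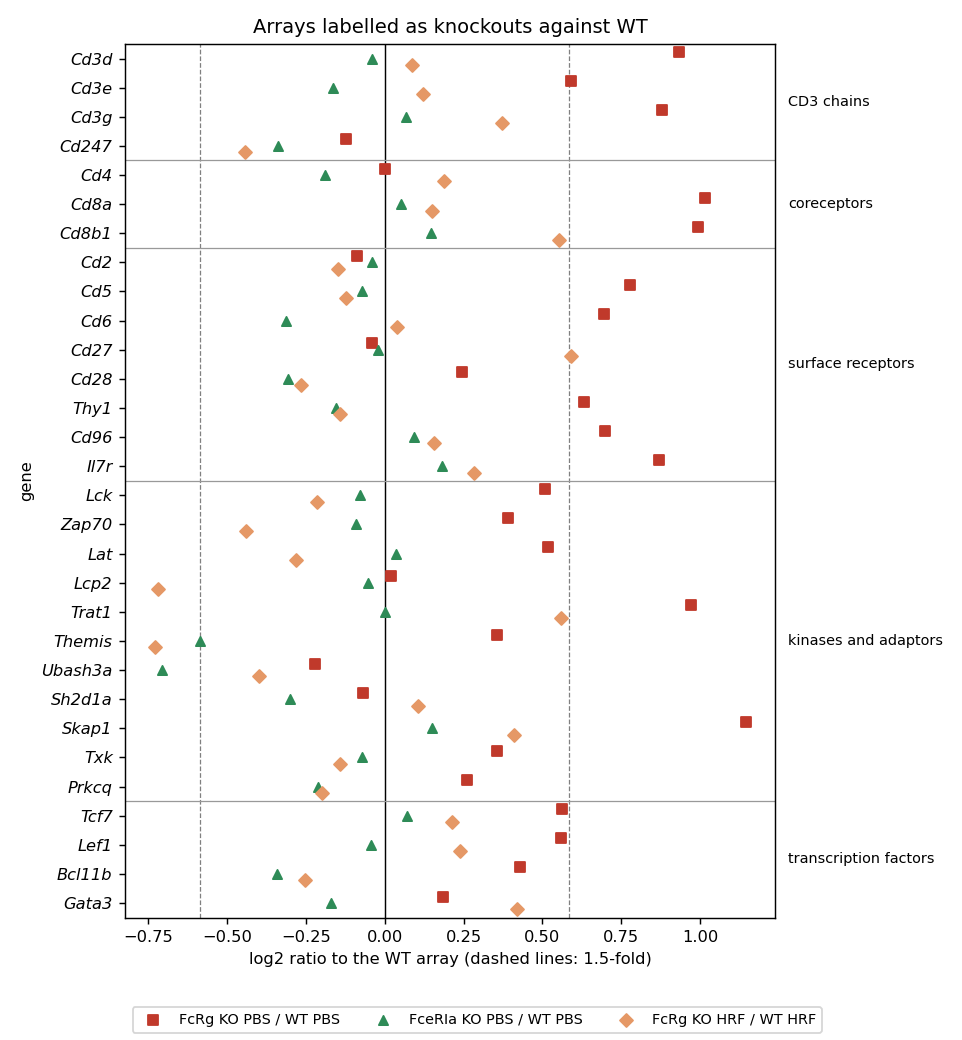
Log2 ratio of each T cell gene on the arrays labelled as knockouts against the WT array of the same challenge (squares and triangles, PBS arrays; diamonds, HRF arrays of the FcRg KO label), with dashed lines at 1.5-fold. For FcRg KO PBS, 12 of 30 squares lie past the upper line and none past the lower, while the triangles of FceRIa KO PBS lie around 0, with Ubash3a the lowest.

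Over both challenges, 0 of 30 T cell genes passed limma between the FcRg KO label and WT, where 26 of 17605 genes tested passed, or 0.148%. The lowest adjusted p among the 30 was 0.288, for Cd8b1, whose difference was 0.77 ± 0.14 (SE). Before adjustment, 8 of 30 had a p under 0.05 (Cd3g, Cd8b1, Il7r, Trat1, Ubash3a, Skap1, Tcf7 and Lef1), against 13.4% of all genes, and Ubash3a was the lower one among them. The p-values rest on 2 residual degrees of freedom and take the interaction of label and challenge for error.

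Against the other labelled knockout the PBS difference was of like size. Between FcRg KO PBS and FceRIa KO PBS, 15 of 30 T cell genes were at least 1.5-fold higher (4.44% of all genes) and 0 lower (2.81%). The median was 0.59, and Cd6 passed 2-fold at 1.01 (1.14%), while its second probe gave 0.58. In limma over both challenges, a contrast added after the data were seen, 28 of 30 were higher. The median was 0.45, against 0.04 over all genes. Of the 30, 0 passed (0.148% of all genes), with a lowest adjusted p of 0.373 for Trat1. Before adjustment 13 of 30 had a p under 0.05, against 9.34% of all genes. Both comparisons use the FcRg KO PBS array.

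The FceRIa KO PBS array lay near WT PBS. The median ratio over the 30 genes was -0.07, against -0.04 over all genes, a distance of -0.04 that a shift of all genes cannot alter. Median scaling shifts all genes of this comparison by 0.23, which puts the median of the 30 at 0.16, and the deposited value table gave 0.00. At least 1.5-fold higher were 0 of 30 (1.40% of all genes), and 1 was lower (8.29%). That gene was Ubash3a, at -4.84, -4.50, -5.07, -4.89, -5.55 and -5.28, lowest on both arrays labelled FceRIa KO. Themis, at -3.88, -3.17, -3.53, -3.90, -4.47 and -4.24, had a ratio of -0.58 and lay just inside 1.5-fold. In limma over both challenges 24 of 30 were lower, with a median of -0.23 against -0.03 over all genes. Of the 30, 0 passed, as for all genes tested. The lowest adjusted p was 0.148 for Ubash3a, and Cd247, Ubash3a and Sh2d1a had a p under 0.05 before adjustment, against 12.9% of all genes.

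The next comparison asks how the T cell genes of WT lung differed between HRF and PBS. The median HRF to PBS ratio was 0.37, against -0.05 over all genes, and 27 of 30 ratios were above 0, against 45.0% of the genes well above background on all arrays. At least 1.5-fold higher were 7 of 30 (5.32% of all genes) and 0 were lower (8.18%). Scaling on the median moved the median of all genes by 0.22 and the count to 15. The distance of the 30 genes from the median of all genes was 0.42, which such a shift cannot alter. In the deposited value table the count was 11. The share of all genes was counted for neither alternative, so 5.32% is not the counterpart of 15 or 11. The 3 genes below 0 were Cd27 (-0.53), Gata3 (-0.17) and Lef1 (-0.08).

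Kinases and adaptors next to the receptor were among the highest. Lcp2 stood at -3.83, -2.97, -3.81, -3.69, -3.88 and -3.38, and its WT ratio of 0.86 was the highest of the 30 genes. It rests on 1 dim probe, with a mean level of -3.59. Zap70, at 0.95, 1.68, 1.34, 1.24, 0.86 and 1.04, had a ratio of 0.73, and Lat, at -1.44, -0.73, -0.92, -1.01, -1.41 and -1.07, one of 0.71. All 3 were highest on WT HRF, whereas Cd3d and Cd3e were highest on FcRg KO PBS. Themis (0.71) and Skap1 (0.67) also passed 1.5-fold, which makes 5 of the 11 kinases and adaptors, and Lck had a ratio of 0.54. In this comparison neutrophil genes had a median of 1.68 and macrophage and dendritic cell genes one of 0.61. The part of other leukocytes in the values of Lcp2 and the other kinases and adaptors was not tested.

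In the other roles the median ratios were smaller, 0.43 for the CD3 and zeta chains and 0.47 for the surface receptors. Of the CD3 and zeta chains, Cd3d (0.61) passed 1.5-fold, while Cd3g (0.56), Cd3e (0.30) and Cd247 (0.22) did not. Cd5 (0.71) was the surface receptor past 1.5-fold, followed by Thy1 (0.52), Cd6 (0.51) and Cd28 (0.50). The coreceptors gave 0.26 for Cd8a, 0.21 for Cd8b1 and 0.01 for Cd4, and the transcription factors 0.29 for Bcl11b and 0.10 for Tcf7. The medians of the coreceptors and the transcription factors were 0.21 and 0.01, against 0.54 for the kinases and adaptors.

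Cd27 had the lowest ratio in WT. Its level was -3.74, -4.26, -3.78, -3.67, -3.76 and -3.66, lowest on WT HRF. It is among the 3 dimmest of the 30 genes, with Themis and Ubash3a, and its second probe gave 0.04 where the brighter one gave -0.53. A second probe was present for 9 genes, and in WT it had the same sign as the brightest for 5 of them, with Cd4, Cd27, Themis and Tcf7 as the exceptions. For Themis the second probe was well above background on 1 array only. The PBS ratio for the FcRg KO label had the same sign in 6 of 9, with Cd2, Cd27 and Themis as the exceptions. In that comparison Cd6 gave 0.70 with its brightest probe and 0.34 with its second. Zap70 in WT gave 0.73 and 0.56, so these calls past 1.5-fold rest on the brightest probe.

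On the pair labelled FcRg KO, HRF went with slightly lower T cell values. The median ratio was -0.11, against 0.00 over all genes, and 8 of 30 ratios were above 0 (50.02% of genes). At least 1.5-fold higher were 0 of 30 (3.06% of all genes). Cd8a, at -0.60 where its second probe gave -0.18, was the gene at least 1.5-fold lower (3.47%). Next came Lef1 at -0.40, Bcl11b at -0.39 and Themis at -0.37, while Sh2d1a (0.47) and Cd2 (0.27) lay at the upper end. This ratio shares the FcRg KO PBS array, on which these genes were high, with the PBS comparison described before, so the pair of results is not independent.

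For the pair labelled FceRIa KO the median ratio lay between those of the other pairs. It was 0.20, against -0.01 over all genes, 26 of 30 were above 0 (47.3% of genes), and 0 passed 1.5-fold in either direction (3.69% higher and 2.08% lower). The highest were Lcp2 (0.50), Cd96 (0.46) and Cd5 (0.42). Cd8a was the lowest at -0.32.

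**Figure D3:**
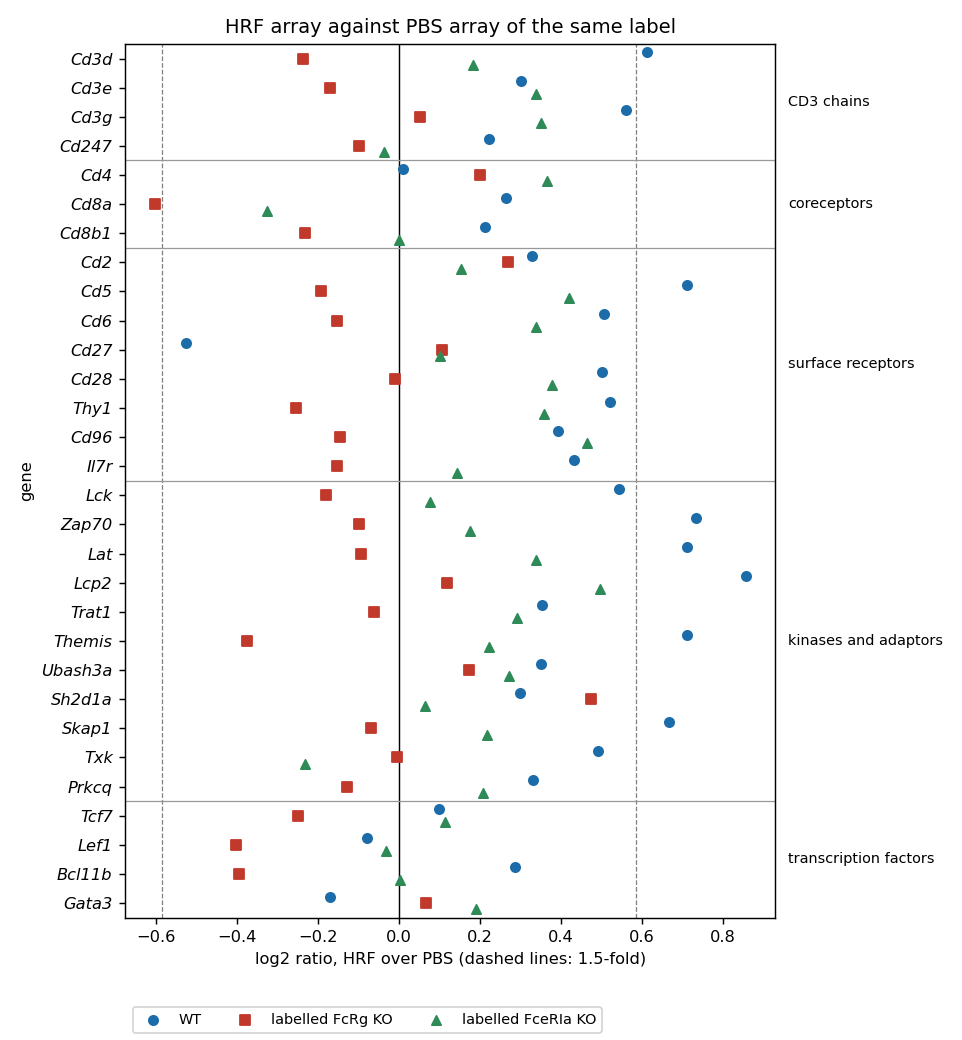
Log2 HRF to PBS ratio of each T cell gene, grouped by role, on the pair of arrays of each genotype label, with dashed lines at 1.5-fold. In WT 27 of 30 ratios lie above 0 and 7 pass 1.5-fold, on the pair labelled FcRg KO 8 lie above 0, and on the pair labelled FceRIa KO 26.

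Set side by side, the WT ratio was above that of the FcRg KO label in 26 of 30 genes (47.4% of genes) and above that of the FceRIa KO label in 23 (48.4%). In 21 genes it was above 0 in WT and below 0 on the pair labelled FcRg KO (20.6% of genes), and 6 genes were above 0 on all 3 pairs (17.6%). Those 6 were Cd3g, Cd4, Cd2, Lcp2, Ubash3a and Sh2d1a. The limma fit of a single pair's response, given next, leaves 1 residual degree of freedom, so a gene that does not pass says little. When 1 pair's response was set against that of the other 2 pairs in limma, 0 of 30 and 0 of all 17605 genes passed for each of the 3 pairs. The lowest adjusted p among the 30 was 0.569 for the WT pair and 0.823 for the pair labelled FcRg KO. Before adjustment Cd8a and Cd27 had a p under 0.05 for the WT pair (1527 of all genes), Cd5 and Thy1 for the pair labelled FcRg KO (1027), and 0 of 30 for the pair labelled FceRIa KO (608). Averaged over the 3 labels, the HRF effect in limma was above 0 in 24 of 30 genes. Its median was 0.19, against -0.02 over all genes, and 0 of 30 passed, as for all genes (lowest adjusted p 0.557). Cd2 and Ubash3a had a p under 0.05 before adjustment, against 8.82% of all genes.

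Cd2 had ratios of 0.33, 0.27 and 0.15 in WT and on the pairs labelled FcRg KO and FceRIa KO. Its levels were 2.51, 2.84, 2.42, 2.69, 2.47 and 2.62, higher with HRF for each label, and the average effect was 0.25 ± 0.07 (SE).

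Between the HRF arrays, the FcRg KO label lay near WT and the FceRIa KO label below it. FcRg KO HRF against WT HRF had a median of 0.06, which was -0.05 over the mean of all probes. Cd27 was at least 1.5-fold higher (4.49% of all genes), where its second probe gave 0.08, and Lcp2 and Themis were lower (7.43%). Trat1 (0.56) and Cd8b1 (0.55) lay just under 1.5-fold, and both stayed above WT in each challenge. FceRIa KO HRF against WT HRF had a median of -0.34. Here 6 of 30 were at least 1.5-fold lower (6.89% of all genes). They were Themis at -1.07, which passed 2-fold (2.36%), Ubash3a and Txk at -0.79, Zap70 at -0.65, Bcl11b at -0.63 and Cd247 at -0.60. Cd27 was at least 1.5-fold higher (3.58%). Second probes gave -0.04 for Bcl11b, -0.03 for Cd27 and -0.58 for Zap70. NK cell genes had a median of -0.84 here, with 10 of 14 at least 1.5-fold lower. Activated and regulatory T cell genes had -1.29 and B cell genes 0.12. The part of these lists in the T cell values was not tested. The 2 comparisons of HRF arrays share the WT HRF array.

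The wider receptor pathway was taken from a list of 37 further genes for kinases, adaptors, phosphatases and downstream signalling, all of which were well above background. In WT, 5 of 37 were at least 1.5-fold higher with HRF (5.32% of all genes) and the median was 0.26. Malt1, the protease that links the receptor to NF-kB, passed 2-fold at 1.04. On FcRg KO PBS against WT PBS, the median was -0.05, with 0 of 37 higher (2.65% of all genes) and 5 lower (8.52%) by 1.5-fold, and Pag1, an adaptor that restrains Lck, passed 2-fold at -1.13. In limma 0 of 37 passed in the average HRF effect and in the differences of either label from WT, and 6, 7 and 4 of them in turn had a p under 0.05 before adjustment, against 8.82%, 13.4% and 12.9% of all genes. Many of these genes also act in other leukocytes.

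T cell states were described by lists of their own. For activated and regulatory T cells, the WT median was 1.14, and 11 of 14 genes compared were at least 1.5-fold and 8 at least 2-fold higher with HRF, against 5.32% and 2.33% of all genes. Il2ra, the IL-2 receptor alpha chain (2.45), Ctla4, an inhibitory receptor (2.33), Tnfrsf4, the costimulatory receptor OX40 (1.86), and Foxp3, the factor of regulatory T cells (1.65), led. The median of the list was 0.06 on the pair labelled FcRg KO, 0.15 on the pair labelled FceRIa KO and -0.01 on FcRg KO PBS against WT PBS. For naive T cell homing genes the WT median was 0.22 and the FcRg KO PBS median was 0.02. In limma 0 genes of these lists passed in the average HRF effect, with 4 of 14 and 1 of 8 under 0.05 before adjustment, against 8.82% of all genes.

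**Figure D4:**
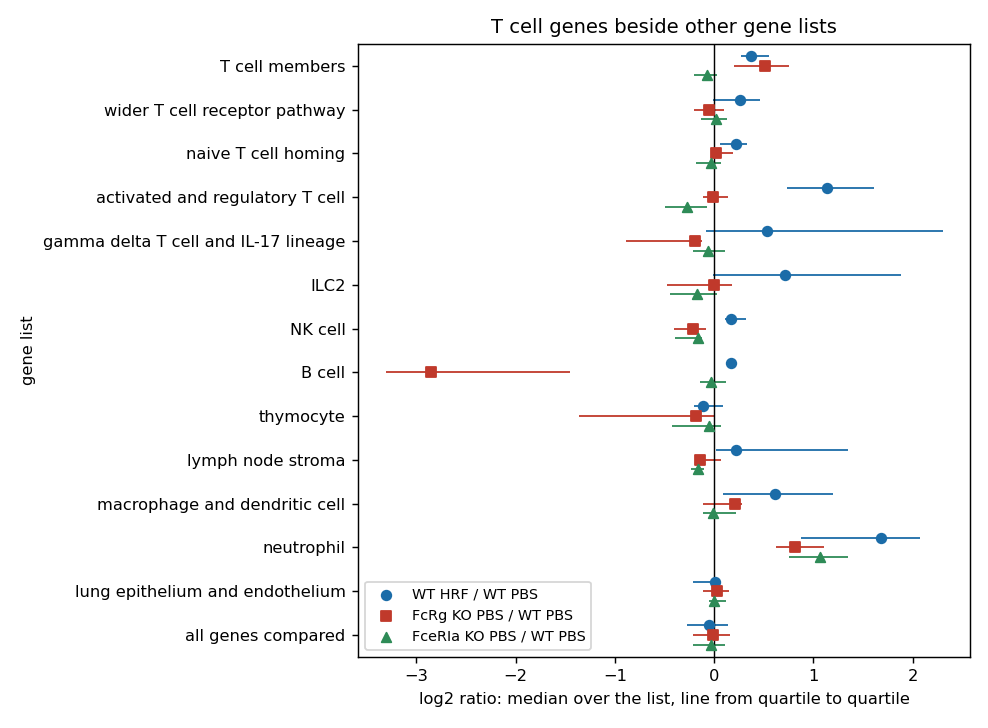
Median log2 ratio (points) of the 30 T cell genes and of lists of other cell types and states for WT HRF against WT PBS and for each labelled knockout's PBS array against WT PBS. Lines run from quartile to quartile over the genes of a list and are no error between mice. The activated and regulatory T cell list stands at 1.14 in WT and the B cell list at -2.85 on FcRg KO PBS against WT PBS.

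Markers of other cell types were measured on the same arrays. In WT, neutrophil genes had a median HRF to PBS ratio of 1.68, innate lymphoid type 2 (ILC2) genes of 0.71 and macrophage and dendritic cell genes of 0.61, while NK cell genes had 0.17 and B cell genes 0.17. Gata3, a member of the T cell genes, is also on the ILC2 list. The summed neutrophil level was 7.36 and 7.66 on the WT arrays, 7.56 and 7.81 for the FcRg KO label, and 7.90 and 8.08 for the FceRIa KO label, with all 7 genes well above background on all arrays. For macrophage and dendritic cell genes the summed level lay between 6.78 and 7.29 on the 6 arrays. The summed NK cell level was 4.93 and 5.26 on the WT arrays, 4.84 and 5.16 for the FcRg KO label, and 4.74 and 4.33 for the FceRIa KO label, with 13 of 14 genes well above background on all arrays. NK cells express Cd247, Cd2, Cd96 and several of the kinases. Ncr1, an NK cell receptor, had ratios of 0.10 with HRF in WT and -0.61 on FcRg KO PBS against WT PBS. The median of the NK cell list was -0.21 in the latter comparison, with 2 of 14 genes at least 1.5-fold lower (8.52% of all genes). Of 11 thymocyte genes, 5 were at least 1.5-fold and 3 at least 2-fold lower on FcRg KO PBS than on WT PBS (8.52% and 3.04% of all genes). Among them, Rag1 was not well above background on the arrays labelled FcRg KO, while Dntt on the list had a PBS ratio of -0.03. On FceRIa KO PBS against WT PBS, 3 of 11 thymocyte genes were at least 1.5-fold lower (8.29% of all genes) and 1 was higher (1.40%). Ly6d, which B cells also express, fell in limma between the FcRg KO label and WT with an adjusted p of 0.00827. The part of these cell types in the T cell values was not tested.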

How the data were processed

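Whole-lung RNA was measured on 6 one-colour arrays, 1 per group, that share 1 slide and 1 scan. Per the file headers, Agilent Feature Extraction 10.7.3.1 read the spots of a design annotated on mm9. Its deposited processed signal is an intensity, background-subtracted within the array and not scaled between arrays. A deposited value table holds log2 values whose centring is unknown. Its HRF to PBS differences gave r of 0.996, 0.992 and 0.992 across genes against the scanner files for WT, the FcRg KO and the FceRIa KO label, with slopes of 1.00, 0.999 and 1.00, and the median of a column was 0.1 for WT PBS and 0 otherwise.

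From the processed signal, outlier spots were left out, spots of a probe averaged, log2 taken and the 75th percentile of the array subtracted. Of 55681 probes, 26056 were named through their RefSeq accession with the GRCm38.p6 gene table, giving 19752 genes, and 29625 stay unnamed here. The brightest probe stood for a gene. A gene was compared where it was well above background on at least 1 array of the comparison, and a list's gene not above background on 1 side gives a bound.

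With 1 array per group, ratios have no test. They are counted past 1.5-fold and 2-fold beside the same share of all genes. Tests used limma 3.58.1 under R 4.3.3 (label and challenge as additive terms, Benjamini-Hochberg over 17605 genes, threshold 0.05), checked on simulated data. Its p-values measure the spread between these arrays, not between mice. The alternatives were normexp with an offset of 50 and quantile normalization, median scaling, the value table, the mean of all probes, other filters and priors, fits without genotype terms, and leaving out a pair of arrays. Added after the data were seen were the FcRg KO against FceRIa KO label contrast, the comparisons of HRF arrays and the 30 genes without the 3 dimmest. The members and lists were chosen with earlier results of these data known. All 30 members are described, and from other lists up to 4 genes past 2-fold and defining markers. Some defining markers of these lists are not reported here by name.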

Additional observations from a re-analysis of the deposited data

Results flagged for a closer look

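The median HRF to PBS log2 ratio of the 30 T cell genes was 0.37 for WT. For the pair labelled FcRg KO it was -0.11. The pairs stood in opposite directions, with 1 HRF and 1 PBS array each, and the difference of the medians was not tested. The limma fit of a single pair's response leaves 1 residual degree of freedom. For single genes the difference of 1 pair's response from the other pairs was tested with limma, and 0 of 30 passed, with a lowest adjusted p of 0.569 for the WT pair and 0.823 for the pair labelled FcRg KO. B cell genes were low on both arrays labelled FcRg KO, with a summed level of 3.80 and 4.04, and their part in this difference was not tested.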

How the results depend on the processing

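The depth limit here is the number of arrays: with 1 per group no ratio has an error. The average HRF effect pairs the arrays by genotype, which is a term of the fit. Without genotype terms 0 genes passed as well, with 1006 in place of 1552 under 0.05 before adjustment. A block on replicate numbers could not be fitted, since each group holds 1 array. Across the alternatives the median of the 30 genes kept its direction in WT (0.35 to 0.59), on the pair labelled FcRg KO (-0.15 to -0.10), on the pair labelled FceRIa KO (0.16 to 0.25) and between FcRg KO PBS and WT PBS (0.44 to 0.79). None of the 30 genes passed limma under an alternative.

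Scaling on the median, which shifts all genes of a comparison alike, gave a WT median of 0.59 with 15 genes at least 1.5-fold higher, a median of 0.79 with 20 genes for FcRg KO PBS against WT PBS, and 0.16 in place of -0.07 with 0 genes lower for FceRIa KO PBS against WT PBS. The share of all genes past 1.5-fold was not counted under this scaling or the other alternatives. Scaling on the median leaves the distance from the median of all genes unchanged by construction, at 0.42, 0.52 and -0.04 in these 3 comparisons. It also gave 5 genes higher in limma between the knockout labels in place of 3, 3 higher and 22 lower between the FceRIa KO label and WT in place of 0, and 79 higher and 47 lower in the response of the pair labelled FceRIa KO in place of 0. With normexp and quantile normalization, 0 genes were lower on the pair labelled FcRg KO in place of 1, and 0 in place of 1 for FceRIa KO PBS. On the HRF arrays against WT it left 0 higher and 0 lower for the FcRg KO label (1 and 2 otherwise), and 0 higher and 3 lower for the FceRIa KO label (1 and 6 otherwise). In limma it gave 7 higher and 45 lower genes between the knockout labels, 5 and 38 between the FcRg KO label and WT, and 2 higher for the FceRIa KO label.

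With the authors' own deposited values, 11 genes were higher in WT, the FceRIa KO PBS median was 0 with 2 genes lower, and limma gave 0 higher and 9 lower genes between the knockout labels and 0 and 11 between the FcRg KO label and WT. The mean of all probes reversed the median of the HRF arrays labelled FcRg KO against WT to -0.05, left 0 genes higher there and 0 on the FceRIa KO HRF array, counted 2 lower on FceRIa KO PBS, and gave 0 genes higher in limma for the FcRg KO label. Without the 3 dimmest genes, 0 were lower on FceRIa KO PBS, 0 higher and 1 lower on FcRg KO HRF, and 0 higher on FceRIa KO HRF. With no filter on dim probes limma gave 0 higher and 13 lower genes between the knockout labels, and 0 and 16 for the FcRg KO label against WT, where the main counts were 1 and 25. Without the pair labelled FceRIa KO that comparison gave 0 and 0, with 1 residual degree of freedom. Of the log2 ratios of single genes, 129 moved by more than the residual spread, 90 of them under scaling on the median. The other 1761 single-gene values counted as unchanged. They include limma results, which were judged only by whether a gene passed and not by the size of a move. Beyond the size of the shift and the fewer arrays or genes, the cause was not tested.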

Other observations

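Cytokines that T cells make or receive were measured beside their receptors. Il2, the growth factor of T cells, stood at -5.81 on WT PBS and -2.87 on WT HRF, a log2 ratio of 2.95, while its ratio on the pair labelled FcRg KO was -0.43. Il21, a helper T cell cytokine, was well above background on WT HRF only and at least 7.37-fold higher there than on WT PBS. Il17a, made by gamma delta and helper T cells, had a ratio of 5.30 in WT, and on both arrays labelled FcRg KO it was not well above background. Il7 and Il15, which keep resting T cells alive, had WT ratios of 0.16 and -0.10. Chemokines that attract T cells had a median ratio of 1.98 in WT, -0.09 on the pair labelled FcRg KO and 1.70 on the pair labelled FceRIa KO. Cxcl10 led them with 3.17, -0.28 and 3.63, followed in WT by Ccl17 with 2.89, 0.85 and 2.38. The chemokine levels on the pair labelled FceRIa KO were themselves lower than in WT, with all 7 genes compared below WT on the PBS arrays (median -0.35, lowest -3.56) and a median of -0.63 on the HRF arrays, where 5 of 7 were at least 1.5-fold lower. The median of activated and regulatory T cell genes was 0.15 on that pair and 1.14 in WT. These ratios have no replicate, and their differences were not tested.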
